A study of Homo sapiens with 6 samples.

Results

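The MYC and MAX network is a set of transcription factors with a basic helix-loop-helix leucine zipper that compete for shared partners and for shared DNA. MYC pairs with MAX, binds the E-box hexamer and raises transcription of genes for growth and ribosome assembly. The MXD proteins, MXI1, MNT and MGA pair with MAX in place of MYC and recruit repressors, while MLX is the MAX-like partner of the glucose-responsive factors MLXIP (MondoA) and MLXIPL (ChREBP). MYC is a growth driver in squamous carcinoma, and MXD proteins are known from cells that leave the cycle or differentiate.

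The 9 genes MYC, MAX, MXD1, MXD3, MXD4, MXI1, MNT, MGA and MLX were taken by symbol from a deposited table of 27887 rows, and each had 1 row and no numbered copy. By RefSeq (GRCh38.p14) the genes lie at chr14:65006101-65102695 (MAX), chr2:69915109-69942945 (MXD1), chr5:177305499-177312752 (MXD3), chr4:2247432-2262109 (MXD4), chr10:110207605-110287365 (MXI1), chr17:2384073-2401060 (MNT), chr15:41621224-41769940 (MGA) and chr17:42567100-42573203 (MLX), with MYC on chromosome 8. All 9 passed the filter on low values, an average of 1 FPKM (fragments per kilobase of transcript, scaled to the fragments of the library) or more over the 6 libraries, which left 13409 genes in the test. The cells were KYSE450, an established line from a human squamous carcinoma of the esophagus (ESCC). The 3 mock libraries, labelled WT, are from cells infected with mock virus, and the 3 shHMGB2 libraries, labelled HMGB2 knockdown, from cells infected with shHMGB2 virus; HMGB2 is a DNA-bending chromatin protein. The sources used here do not say if the mock virus held a hairpin, how many hairpin sequences were used, or when cells were taken. The later libraries of each group, replicates 2 and 3, are labelled as repeat samples with no word on separate cultures, so the tests measure the spread between libraries, which may be technical.

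HMGB2 stood at 112 ± 3.60 FPKM in mock and 24.8 ± 2.84 FPKM in shHMGB2 (SD, n = 3 each), so the labels and the target matched. Summed FPKM ran from 740684 to 829437 per library, and the deepest library, shHMGB2 replicate 1, was about 1.88 times as deep as the shallowest, shHMGB2 replicate 3, judged from the value that the table assigns to genes seen in a single library. Pearson's r of log2(FPKM + 1) profiles across genes ran from 0.985 to 0.989 for pairs of 1 group and from 0.978 to 0.987 for mock with shHMGB2. All 10 squamous markers on the list were above 1 FPKM on average, and their summed level was 7408 to 7648 FPKM in mock and 6358 to 7107 FPKM in shHMGB2. The keratin genes KRT14, KRT6A and KRT17 fell (log2 fold changes -0.55, -0.54 and -0.41), and SOX2 rose (0.42). The other 6, KRT5 and TP63 among them, did not pass. Over all genes tested 3.45% fell and 3.3% rose past the same threshold. These marker genes were named after their values were seen. Above 1 FPKM were LUM and ACTA2, 2 of 8 fibroblast markers in the table (summed level of the list 7.47 to 9.72 FPKM in mock, 10.6 to 11.4 FPKM in shHMGB2), CD68, which fell (log2 fold change -0.61), of 4 leukocyte markers in the table (6.90 to 7.65 and 4.37 to 4.8 FPKM) and ERG of 7 endothelial markers in the table (1.95 to 2.61 and 2.39 to 2.88 FPKM), and the part of these levels in the results was not tested.

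Knockdown of HMGB2 came with lower MYC and MXD1 and with higher MXD4, while MAX, MLX, MXD3, MXI1, MNT and MGA did not pass the test. In bulk RNA, fewer cells that express a gene and less of its RNA per cell cannot be told apart. Of the 9 genes, 2 fell, 1 rose and 6 did not pass at an adjusted p of 0.05 in limma, a linear model on log2(FPKM + 1) fitted to all 13409 genes. Over all genes tested 6.75% passed, 3.3% higher and 3.45% lower, and with so few members the share among them is given as a count only. That split, 442 higher and 463 lower, was 310 and 526 under upper-quartile scaling and 350 and 571 under median-of-ratios scaling. In the authors' deposited table the same 3 members had an adjusted p under 0.05, against 15.4% of all rows with an adjusted p there, and 0 members were among the 76 rows marked Up or Down, which begin at an absolute log2 fold change of 1.00.

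**Figure D1:**
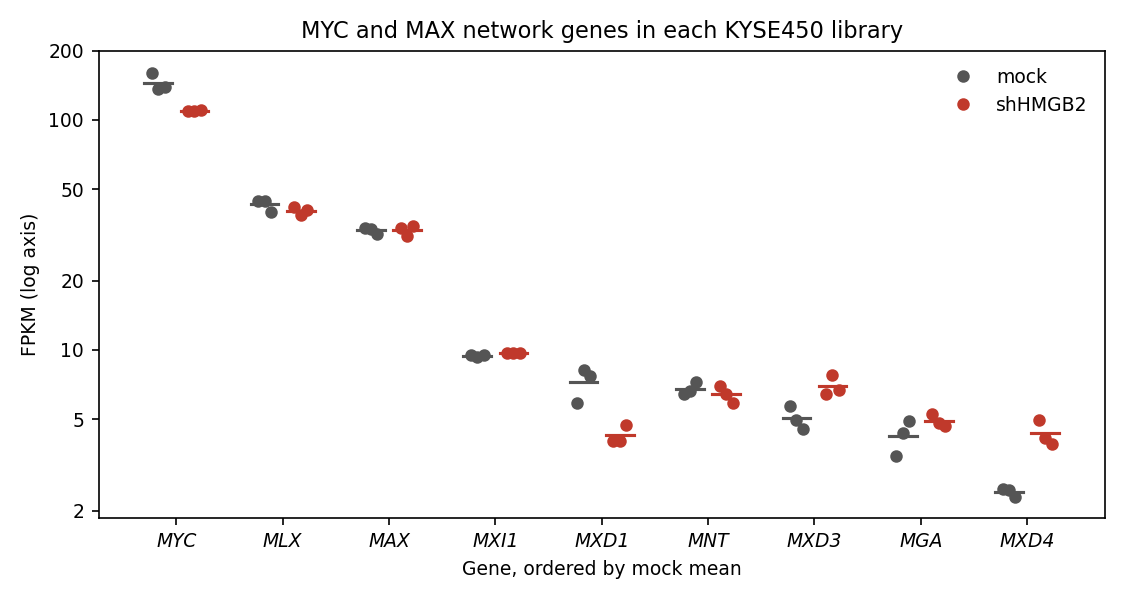
FPKM of the 9 network genes (log axis) in 3 mock and 3 shHMGB2 libraries. Points are libraries and short lines are group means. MYC sits far above the rest in both groups, MXD1 is the fifth in mock and the last in shHMGB2, and MXD4 is the last in mock.

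MYC, the activator of the network and the product of a proto-oncogene on chromosome 8, was the most abundant member per length in every library. Its level was 159.67, 135.70 and 139.67 FPKM in mock replicates 1, 2 and 3. In shHMGB2 it was 109.46, 109.64 and 110.54 FPKM. Every shHMGB2 library lay below every mock library, and the shHMGB2 values lay within about 1 FPKM of each other while mock replicate 1 stood above the other mock libraries. The means were 145 ± 12.8 and 109.9 ± 0.579 FPKM (SD, n = 3 each), which left 75.8% of the mock level. The log2 fold change was -0.39 (SE 0.071, 95% interval -0.56 to -0.23, limma adjusted p = 0.0206). MYC ranked at the 94.1 percentile of mean level among genes tested. Leaving out shHMGB2 replicate 1, 2 or 3 took MYC out of the calls (limma adjusted p = 0.0804, 0.0827 and 0.0768) at log2 fold changes of -0.39, -0.39 and -0.40, and so did a test with genes of low value kept (limma adjusted p = 0.0598).

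MAX, the obligate partner that MYC and its antagonists share, had 33.75, 33.51 and 31.95 FPKM in mock and 33.88, 31.42 and 34.51 FPKM in shHMGB2. The groups overlapped over their whole range, and the means were 33.1 ± 0.977 and 33.3 ± 1.63 FPKM (SD, n = 3 each). The log2 fold change of MAX was 0.008 with a 95% interval of -0.13 to 0.15 (limma adjusted p = 0.945), and its sign turned under upper-quartile scaling, to -0.04. MYC transcript exceeded MAX transcript per length 4.73, 4.05 and 4.37 times in the mock libraries and 3.23, 3.49 and 3.20 times in the shHMGB2 libraries. This ratio is taken within a library and does not depend on its scaling; the groups did not overlap, and as a score over members it was not tested.

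MLX, the MAX-like protein, was second in level, with 44.61, 44.27 and 39.89 FPKM in mock and 42.01, 38.53 and 40.61 FPKM in shHMGB2. The groups overlapped, and the log2 fold change was -0.09 (95% interval -0.24 to 0.07, limma adjusted p = 0.432). MLX shares 18.1% of its annotated exon bases with PSMC3IP on the opposite strand, a gene with 27.9 FPKM in mock and 24.4 FPKM in shHMGB2 on average. The sources used here do not give if strand was used in counting, so reads of such partners could not be told apart.

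The 4 MXD family genes went different ways. MXD proteins carry a short N-terminal domain that binds the SIN3 corepressor, and through it histone deacetylases. MXD1, the founding member, also known as MAD1, had 5.87, 8.18 and 7.72 FPKM in mock and 4.02, 4.00 and 4.72 FPKM in shHMGB2. The groups did not overlap, with mock replicate 1 the lowest of its group. The means were 7.26 ± 1.22 and 4.25 ± 0.410 FPKM (SD, n = 3 each), 1.71-fold lower in shHMGB2, and the log2 fold change was -0.65 (SE 0.12, 95% interval -0.93 to -0.36, limma adjusted p = 0.0255). The call of MXD1 was lost when mock replicate 2 or 3 was left out (limma adjusted p = 0.089 and 0.0549), when shHMGB2 replicate 1, 2 or 3 was left out (0.0989, 0.0962 and 0.0569), and with genes of low value kept (0.088). It shares 3.73% of its annotated exon bases with SNRNP27, a splicing gene on the same strand, which was also lower (38.97 and 30.5 FPKM on average, limma adjusted p = 0.0312), and the part of shared reads in the MXD1 value was not tested.

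MXD4, a family member known from resting and differentiated cells, had the lowest mock level of the 9 genes and rose. It had 2.48, 2.47 and 2.30 FPKM in mock and 4.96, 4.14 and 3.89 FPKM in shHMGB2. The mock libraries lay close together, and the lowest shHMGB2 library was well above the highest mock library. The means were 2.42 ± 0.101 and 4.33 ± 0.560 FPKM (SD, n = 3 each), 1.79-fold higher in shHMGB2, and the log2 fold change was 0.64 (SE 0.095, 95% interval 0.41 to 0.86, limma adjusted p = 0.0112). With a pseudocount of 0.1, which compresses low values less, the log2 fold change of MXD4 was 0.81. MXD4 passed whichever 1 of the 6 libraries was left out (limma adjusted p from 0.0246 to 0.0449). Over 8 other settings its limma adjusted p ran from 0.00145 to 0.04996, the highest only just under the threshold. It was not tested under a filter of 5 FPKM.

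MXD3, a member known from cells in S phase, had 5.73, 4.97 and 4.54 FPKM in mock and 6.40, 7.78 and 6.70 FPKM in shHMGB2. All shHMGB2 libraries were above all mock libraries, but the difference did not pass the test (means 5.08 ± 0.603 and 6.96 ± 0.726 FPKM, SD, n = 3 each; log2 fold change 0.39, 95% interval 0.15 to 0.63, limma adjusted p = 0.0642). Without mock replicate 1 the limma adjusted p of MXD3 was 0.0441. MXD3 shares 22.5% of its annotated exon bases with PRELID1 on the opposite strand, which had 332 and 308 FPKM on average, and 17.97% with RAB24 on its own strand (13.8 and 13.5 FPKM on average). PRELID1 and RAB24 did not pass (limma adjusted p = 0.447 and 0.89), and the MXD3 value is uncertain to the extent that such reads were split.

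MXI1, also called MXD2, was the most abundant antagonist and the steadiest member, with 9.50, 9.32 and 9.46 FPKM in mock and 9.68, 9.66 and 9.72 FPKM in shHMGB2. The groups did not overlap, yet the means of 9.43 ± 0.0945 and 9.69 ± 0.0306 FPKM (SD, n = 3 each) differed by 1.03-fold. The log2 fold change was 0.04 (95% interval -0.10 to 0.17, limma adjusted p = 0.709), close to the median of all genes tested, 0.04, and it was -0.01 under upper-quartile scaling and -0.03 in the authors' deposited table. Groups without overlap were seen in MYC, MXD1, MXD3, MXD4 and MXI1, 5 of the 9 members, and in 35.6% of all genes tested. For any 1 gene such a split gives the smallest p that an exact permutation test over these 6 libraries allows, 0.10, 2-sided.

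The 2 large antagonists did not pass. MNT, a repressor that is present in most dividing cells and opposes MYC there, had 6.41, 6.65 and 7.27 FPKM in mock and 6.97, 6.43 and 5.89 FPKM in shHMGB2 (log2 fold change -0.07, 95% interval -0.26 to 0.13, limma adjusted p = 0.622). MGA, a scaffold protein with an added T-box domain and a subunit of the polycomb complex PRC1.6, had 3.44, 4.37 and 4.91 FPKM in mock and 5.26, 4.79 and 4.68 FPKM in shHMGB2. The MGA groups overlapped, with mock replicate 1 the lowest library, and the log2 fold change was 0.18 (95% interval -0.08 to 0.45, limma adjusted p = 0.333). Its interval is the widest after that of MXD1, and it includes changes as large as that of MXD3.

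**Figure D2:**
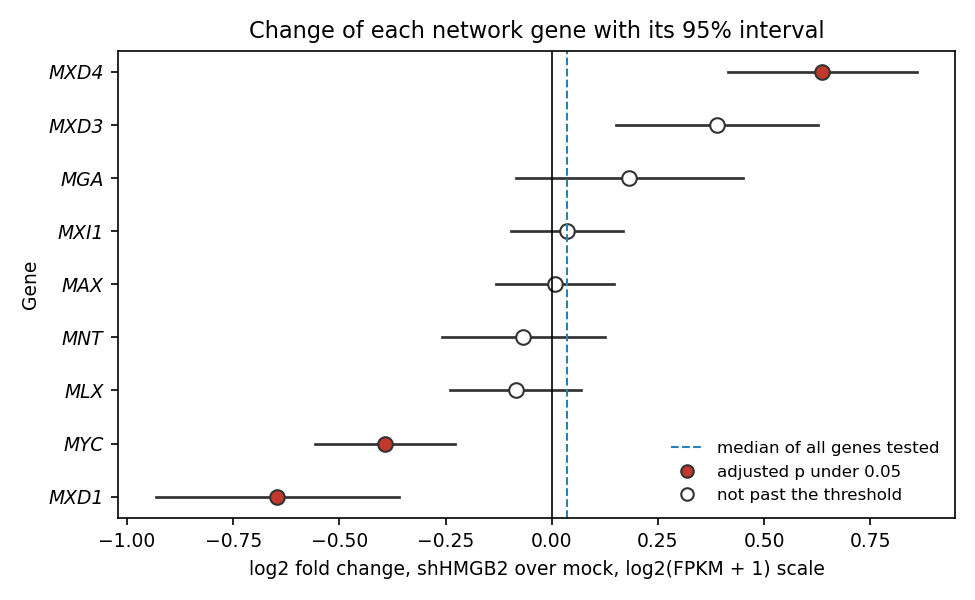
log2 fold change of each network gene, shHMGB2 over mock, with its 95% interval from limma; filled points passed an adjusted p of 0.05 and the dashed line is the median of all genes tested. MXD1 and MYC lie to the left of 0, MXD4 to the right, and the interval of MXD3 also excludes 0 although its adjusted p is 0.0642.

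The order of levels per length in mock was MYC, MLX, MAX, MXI1, MXD1, MNT, MXD3, MGA and MXD4. Neighbours in this order had separate libraries except MXD1 with MNT and MXD3 with MGA, whose libraries overlapped. In shHMGB2 the first 4 kept their places and were followed by MXD3, MNT, MGA, MXD4 and MXD1. There MXD3 overlapped with MNT, MGA with MXD4 and MXD4 with MXD1. MXD1 thus went from place 5 to place 9, and MXD4 from place 9 to place 8.

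The summed transcript of the 6 antagonists MXD1, MXI1, MXD3, MXD4, MNT and MGA hardly differed, while its make-up did. The sum was 33.43, 35.96 and 36.20 FPKM in mock and 37.29, 36.80 and 35.60 FPKM in shHMGB2, with overlapping groups. MXD1 made up 17.6%, 22.7% and 21.3% of it in the mock libraries and 10.8%, 10.9% and 13.3% in the shHMGB2 libraries. For MXD4 the shares were 7.42%, 6.87% and 6.35% in mock and 13.3%, 11.25% and 10.9% in shHMGB2. The MXD1 and MXD4 shares did not overlap between groups, and they moved toward each other: MXD1 exceeded MXD4 by 3.01 ± 0.559 times in mock and stood level with it in shHMGB2, at a ratio of 0.997 ± 0.203 (SD, n = 3 for each group). The MXD3 share rose as well, from 14.5 ± 2.37% in mock to 19.0 ± 2.00% in shHMGB2 (SD, n = 3 each). Its groups did not overlap either, but mock replicate 1 and shHMGB2 replicate 1 were close, at 17.14% and 17.16%. MXI1 kept 26.8 ± 1.39% and 26.5 ± 0.707% of the sum (SD, n = 3 each).

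MYC exceeded the summed antagonists 4.78, 3.77 and 3.86 times in the mock libraries and 2.94, 2.98 and 3.11 times in the shHMGB2 libraries. The groups did not overlap, and mock replicate 1, which had the highest MYC and the lowest antagonist sum, was the highest of all. On average the ratio was 4.14 ± 0.556 for mock and 3.01 ± 0.0881 for shHMGB2 (SD, n = 3 in both), a log2 difference of -0.45, which was -0.34 without mock replicate 1. These ratios describe transcript per length and were not tested.

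**Figure D3:**
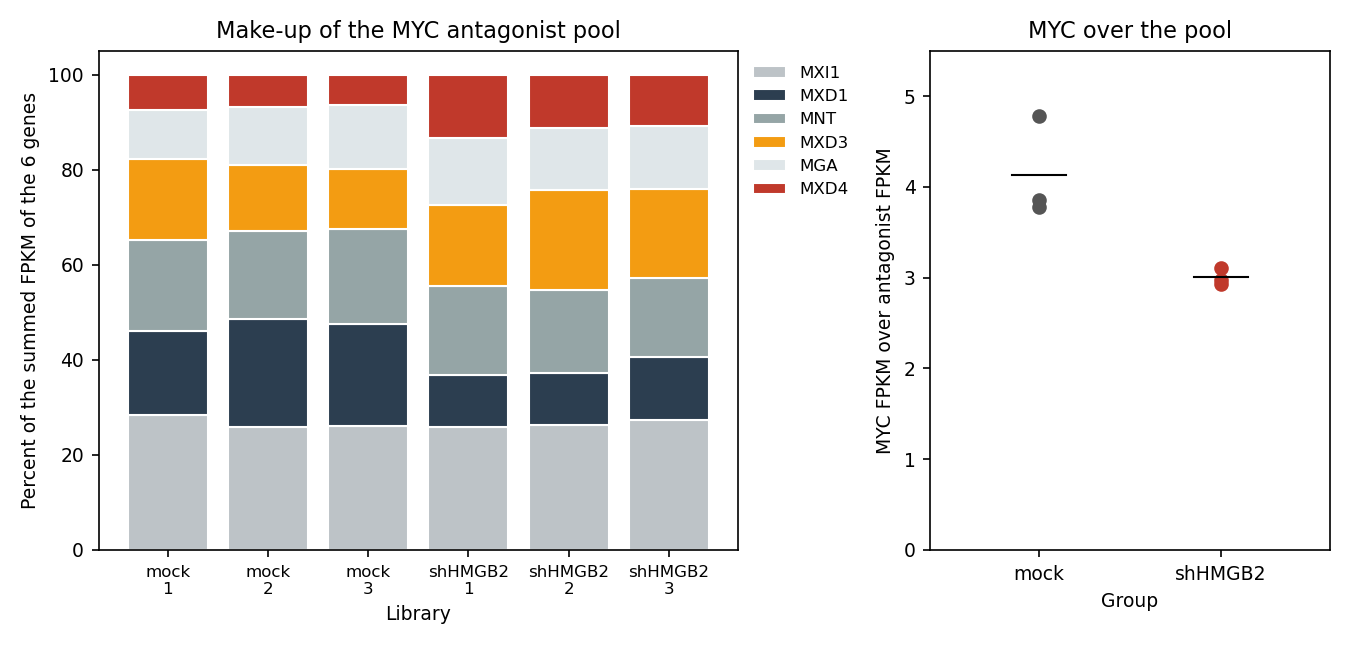
Left, share of each antagonist in the summed FPKM of the 6 antagonists, 1 bar per library; right, MYC FPKM over that sum, with points for libraries and lines for group means. The MXD1 share is smaller and the MXD3 and MXD4 shares larger in each shHMGB2 bar, MXD3 only barely in replicate 1. The ratio is 3.77 to 4.78 in mock and 2.94 to 3.11 in shHMGB2.

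The stretches of DNA before the start sites of MXD1 and MXD4 are shown because these MXD genes passed the test in opposite directions. Each run holds 250 bases 5′ to 3′ up to the base before the start in RefSeq (GRCh38.p14), and the E-box CACGTG, a palindrome that reads the same on both strands, is in capitals. The MXD1 stretch is at chr2:69914859-69915108 on the plus strand and the MXD4 stretch at chr4:2262110-2262359 on the minus strand.
MXD1: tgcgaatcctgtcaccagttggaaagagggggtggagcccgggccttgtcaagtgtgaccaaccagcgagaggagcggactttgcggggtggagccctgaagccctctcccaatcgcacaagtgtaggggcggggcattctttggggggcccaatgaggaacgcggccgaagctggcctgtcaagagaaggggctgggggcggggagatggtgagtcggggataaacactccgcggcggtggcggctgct
MXD4: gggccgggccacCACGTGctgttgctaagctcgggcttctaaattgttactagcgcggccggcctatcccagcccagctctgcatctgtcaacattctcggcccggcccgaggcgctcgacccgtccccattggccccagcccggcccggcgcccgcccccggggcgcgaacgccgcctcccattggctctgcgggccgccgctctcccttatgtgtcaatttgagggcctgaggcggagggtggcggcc

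The MXD4 stretch holds 1 E-box, which begins 238 bases before the start, and the MXD1 stretch holds none of these 6 letters in a row. Windows of 300 bases, 250 before to 50 after the start, were at hand for 8 of the 9 members, and 3 of these genes held the hexamer: MXD4, MNT and MLX. In MNT it begins 193 bases before the start and in MLX 50 bases before it. The stretches below show the bases on either side, at chr17:2401236-2401265 (MNT, minus strand) and chr17:42567038-42567067 (MLX, plus strand).
MNT: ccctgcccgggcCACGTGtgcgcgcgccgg
MLX: gcgggcgcgggtCACGTGggcacgccaccc

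Over the same RefSeq set, 8.77% of the 27305 genes with a window, and 7.26% of its 35116 windows, held the hexamer. MXD3, MXI1, MAX and MGA had no match in any of their windows. Of the 3 members with a match, MXD4 rose and MNT and MLX did not pass. A match of letters is a description and shows no binding.

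MYC-activated growth targets were the list nearest to the biology of the network, with genes of ribosome assembly, translation, nucleotide synthesis and glycolysis. Of 58 tested, 5 fell, 0 rose and 53 did not pass in limma, or 8.62% lower beside 3.45% of all genes. At an unadjusted p under 0.05, 20 of 58 were lower and 0 higher, beside 11.1% of all genes tested lower and 16.8% higher (27.9% in all). The authors' deposited table had 22 lower and 0 higher at an adjusted p under 0.05, beside 9.73% lower and 6.18% higher among the tested genes with an adjusted p there. The median log2 fold change of the list was -0.12, beside 0.04 over all genes tested, and 49 of 58 values were below 0. Under quantile normalization the list's median was -0.05 with 41 of 58 below 0, and under upper-quartile scaling -0.17 with 50 of 58. The median over all genes tested was 0.01 and -0.01 under these 2 settings.

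PA2G4, a growth regulator of the nucleolus, had 430.03, 393.38 and 376.04 FPKM in mock and 289.48, 282.92 and 295.32 FPKM in shHMGB2. The groups were far apart, and the log2 fold change was -0.46 with an SE of 0.065 (adjusted p = 0.00854, limma). NOP16, a nucleolar protein of ribosome assembly, went from 202 ± 25.7 to 153 ± 1.14 FPKM, and NIP7, which acts in rRNA processing, from 78.4 ± 2.86 to 62.8 ± 4.36 FPKM (SD, n = 3 each). PES1 and RRP9, both ribosome assembly factors and named after their values were seen, completed the 5 with log2 fold changes of -0.30 and -0.27. Leaving out mock replicate 2, shHMGB2 replicate 1 or shHMGB2 replicate 3 left 1 lower target each time, and leaving out shHMGB2 replicate 2 left 0, where the limma adjusted p of PA2G4 was 0.0503. It was 3 under upper-quartile scaling, 1 with the variance not trended on level, and 22 with library weights, a setting that also raised the calls over all genes to 4194.

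The E-box hexamer was present in the windows of 25 of the 48 growth targets that had one, 52.1% beside 8.77% of all genes with a window, expressed here or not. It was in 5 of 9 windowed genes (55.6%) of the glucose list described below and in 6 of 14 (42.9%) of the germline list. In the other lists of partners and targets the share ran from 0% to 21.4%. Among the 5 growth targets that fell, RRP9 and PES1 held the hexamer and PA2G4, NOP16 and NIP7 did not.

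Genes known to be repressed by MYC, among them inhibitors of the cell cycle and stress genes, had more members lower than higher. Of 20 listed, 15 passed the filter, and among these 4 fell, 1 rose and 10 stayed under the threshold, beside 3.45% of all genes lower and 3.3% higher. Their median log2 fold change was -0.29, with 9 of 15 values below 0. At an unadjusted p under 0.05, 8 were lower and 3 higher, beside 11.1% of all genes tested lower and 16.8% higher. The authors' deposited table had 7 lower and 1 higher, beside 9.73% lower and 6.18% higher among the tested genes with an adjusted p there. CDKN1A, the kinase inhibitor p21, had 23.45, 29.49 and 27.21 FPKM in mock and 13.50, 13.57 and 15.12 FPKM in shHMGB2 (log2 fold change -0.88, limma adjusted p = 0.00303). THBS1, a matrix protein, fell from 23.2 ± 1.93 to 13.9 ± 0.537 FPKM, and PPP1R15A, a phosphatase subunit of the stress response, from 77.8 ± 13.1 to 51.0 ± 6.89 FPKM (SD, n = 3 each). The fourth that fell was GADD45A, a stress sensor, with a log2 fold change of -0.58, and the gene that rose was CDKN1B, the kinase inhibitor p27, from 39.5 ± 2.72 to 53.7 ± 2.15 FPKM (SD, n = 3 each), at an adjusted p of 0.0122 in limma; both were named after their values were seen. These genes are also targets of other factors, p53 among them for CDKN1A and GADD45A. PPP1R15A passed only without mock replicate 3 among the settings with 1 library left out (limma adjusted p up to 0.138), and it lost its call with no filter (0.126), under quantile normalization (0.052) and with the variance not trended on level (0.0536), and the count of higher genes was 0 without shHMGB2 replicate 1 or 2.

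The other factors of the network were low or did not pass. MYCN and MYCL, the MYC relatives, reached at most 0.22 and 0.72 FPKM in any library, and MLXIPL at most 0.92 FPKM. MLXIP, which senses glucose-6-phosphate as a partner of MLX, had 5.58, 6.26 and 6.03 FPKM in mock and 7.29, 6.69 and 6.38 FPKM in shHMGB2 (log2 fold change 0.16, 95% interval -0.02 to 0.34, limma adjusted p = 0.215). ZBTB17, the zinc finger protein MIZ1 through which MYC represses genes, had 10.7 ± 1.29 and 9.38 ± 0.895 FPKM (SD, n = 3 each), at an adjusted p of 0.311 in limma. For these 2 genes 0 passed in limma, 0 had an unadjusted p under 0.05 and 0 had an adjusted p under 0.05 in the authors' deposited table. The shares were 6.75% and 27.9% over all genes tested, and 15.4% over all rows with an adjusted p in the authors' deposited table.

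Glucose-responsive targets of MLX and MLXIP did not pass either. Of 12 listed, 10 were tested and 0 passed in limma, beside 6.75% of all genes. At an unadjusted p under 0.05, 3 were lower and 0 higher, beside 11.1% of all genes tested lower and 16.8% higher. The authors' deposited table also had 3 lower and 0 higher, beside 9.73% lower and 6.18% higher among tested genes with an adjusted p there. TXNIP, the inhibitor of glucose uptake that is the best known MLX target, was at 474.56, 567.39 and 497.44 FPKM in mock and 523.62, 513.10 and 578.76 FPKM in shHMGB2. Its groups overlapped (log2 fold change 0.07, 95% interval -0.13 to 0.27, limma adjusted p = 0.609). ARRDC4, the arrestin relative of TXNIP, also overlapped, with 68.4 ± 9.66 and 64.0 ± 4.44 FPKM (SD, n = 3 each). HK2, a hexokinase that is a target of MYC and of hypoxia as well, had the smallest p, with 32.3 ± 2.67 and 25.1 ± 2.30 FPKM (SD, n = 3 each), at an adjusted p of 0.0587 in limma, and it passed under upper-quartile and median-of-ratios scaling (limma adjusted p = 0.0267 and 0.0406), without mock replicate 1 (0.0468), under a filter of 5 FPKM (0.0427) and with library weights (0.00594). The median over the 10 genes was -0.05 in log2.

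Of 20 tested genes that set the lifetime of the MYC protein, 2 fell, 1 rose and 17 stayed under the threshold, beside 3.45% of all genes lower and 3.3% higher. Their median log2 fold change was 0.07, beside 0.04 over all genes. By unadjusted p under 0.05, 4 were lower and 6 higher, beside 11.1% of all genes tested lower and 16.8% higher. The authors' deposited table had 5 lower and 2 higher, beside 9.73% lower and 6.18% higher among the tested genes with an adjusted p there. PIM1, a kinase that stabilises MYC, had 18.84, 20.56 and 20.21 FPKM in mock and 10.41, 10.86 and 11.11 FPKM in shHMGB2, groups that were far apart (log2 fold change -0.82, SE 0.062, limma adjusted p = 0.000807). USP36, a nucleolar deubiquitinase that protects MYC, fell from 18.6 ± 2.04 to 13.1 ± 1.01 FPKM, and SKP2, a ubiquitin ligase subunit that acts on MYC and on p27, rose from 43.5 ± 4.29 to 59.2 ± 3.69 FPKM (SD, n = 3 each), at adjusted p-values of 0.0302 and 0.0274 in limma. PIM1 passed whichever 1 library was left out, whereas USP36 and SKP2 passed only without mock replicate 1 (limma adjusted p up to 0.109 and 0.105), and SKP2 did not pass under upper-quartile scaling (limma adjusted p = 0.0632).

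Among regulators of the MYC transcript, 1 of 18 tested rose and 0 fell in limma, beside 6.75% of all genes called. At an unadjusted p under 0.05 there were 4 higher and 1 lower, beside 27.9% of all genes, so the limma counts on this list were near those over all genes. ZFP36L1, an RNA-binding protein that promotes decay of AU-rich transcripts, rose from 34.0 ± 1.09 to 40.9 ± 1.74 FPKM (SD, n = 3 each), at an adjusted p of 0.042 in limma. ZFP36L1 lost its call whichever 1 of the 6 libraries was left out (limma adjusted p from 0.0567 to 0.155) and under upper-quartile and median-of-ratios scaling (0.0795 and 0.0608). The authors' deposited table had 4 genes of this list higher and 0 lower at an adjusted p under 0.05. Among the tested genes with an adjusted p there, 6.18% were higher and 9.73% lower, so that higher count was above the share over all genes.

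Of the genes listed as MYC coactivators or their partners, 2 of 20 fell, 0 rose and 18 did not pass in limma, beside 3.45% of all genes lower. At an unadjusted p under 0.05, 2 were higher and 3 lower, beside 27.9% of all genes in either direction. The authors' deposited table had 1 higher and 3 lower, beside 6.18% higher and 9.73% lower among the tested genes with an adjusted p there. BAP1, a nuclear deubiquitinase that works with HCFC1, had 23.97, 22.99 and 22.87 FPKM in mock and 16.56, 14.75 and 15.61 FPKM in shHMGB2 (log2 fold change -0.55, SE 0.063, limma adjusted p = 0.00409). RUVBL1, an ATPase of chromatin remodelling complexes, fell from 115 ± 5.25 to 97.0 ± 1.39 FPKM (SD, n = 3 each), at an adjusted p of 0.0439 in limma. RUVBL1 lost its call whichever 1 of the 6 libraries was left out (limma adjusted p from 0.0533 to 0.136), and under upper-quartile scaling.

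Of the SIN3 and HDAC corepressors that MXD proteins recruit, 1 of 19 rose, 0 fell and 18 did not pass in limma, beside 6.75% of all genes called, so this count was near that over all genes. At an unadjusted p under 0.05, 6 were higher and 1 lower, beside 16.8% of all genes tested higher and 11.1% lower. The authors' deposited table had 3 higher and 1 lower, beside 6.18% higher and 9.73% lower among the tested genes with an adjusted p there. The median log2 fold change was 0.09. BRMS1L, a SIN3 complex subunit, had 5.71, 5.89 and 6.24 FPKM in mock and 7.86, 9.31 and 8.16 FPKM in shHMGB2 (log2 fold change 0.44, limma adjusted p = 0.0221), and lost its call when mock replicate 2 or any 1 shHMGB2 library was left out (limma adjusted p up to 0.0855). Of the PRC1.6 partners of MGA, 1 of 16 rose, 0 fell and 15 did not pass in limma, again near the 6.75% of all genes. By unadjusted p under 0.05, 4 were higher and 2 lower, beside 16.8% of all genes tested higher and 11.1% lower. The authors' deposited table had 1 higher and 1 lower, beside 6.18% higher and 9.73% lower among the tested genes with an adjusted p there. CBX1, a heterochromatin protein, rose from 62.6 ± 1.76 to 74.7 ± 2.56 FPKM (SD, n = 3 each), at an adjusted p of 0.0384 in limma. CBX1 lost its call whichever 1 library was left out (limma adjusted p from 0.0527 to 0.147), and under upper-quartile and median-of-ratios scaling.

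Germline genes that PRC1.6 keeps silent were low. Of 16 listed, 14 were in the table, 11 of these were under the filter, and none of the 11 was above 0.72 FPKM in any library. The 3 tested had 0 calls in limma, 2 higher at an unadjusted p under 0.05 and 0 calls in the authors' deposited table. For comparison, limma called 6.75% of all genes tested, and 16.8% were higher and 11.1% lower at an unadjusted p under 0.05. Among tested genes with an adjusted p from the authors, 6.18% were higher and 9.73% lower with that value under 0.05. With 3 genes tested, the counts are too few to weigh against these shares. ZCWPW1, a histone reader of meiosis, had the smallest p, with 1.67, 1.91 and 1.41 FPKM in mock and 2.50, 2.34 and 2.73 FPKM in shHMGB2 (limma adjusted p = 0.0575). ZCWPW1 passed with the variance not trended on level (limma adjusted p = 0.044) and with library weights (0.0327), settings that gave 1 and 2 higher calls on this list.

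**Figure D4:**
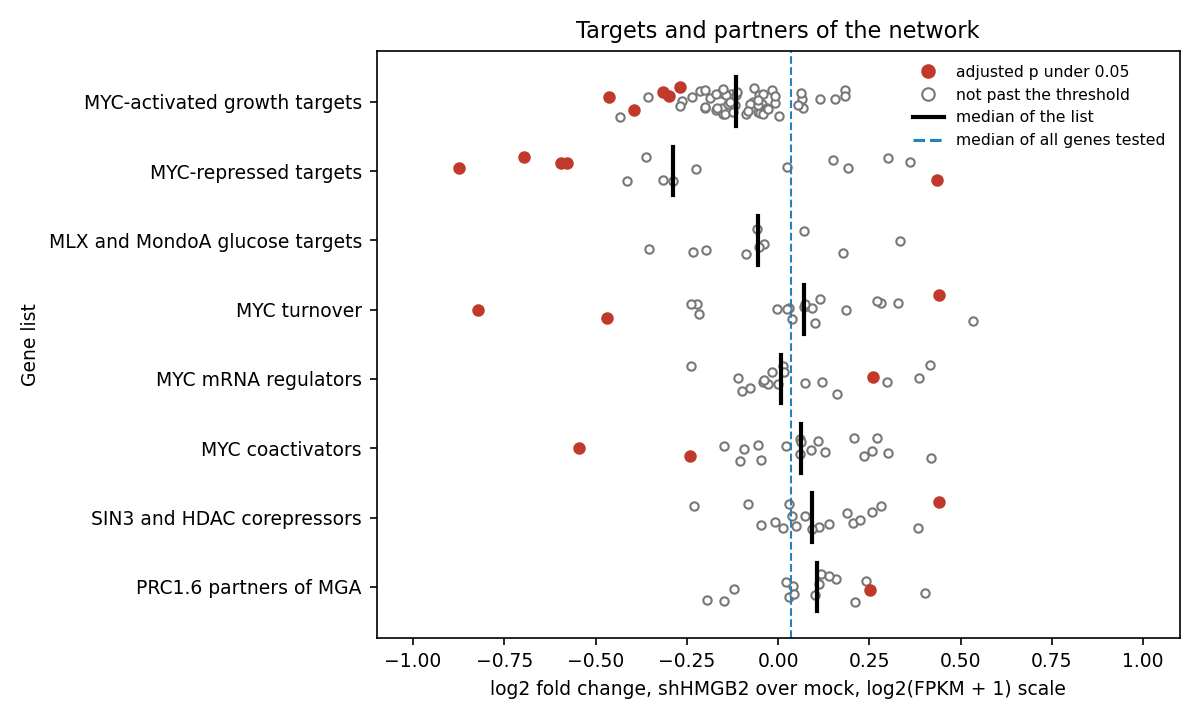
log2 fold change of every tested gene in 8 lists of targets and partners, shHMGB2 over mock; filled points passed an adjusted p of 0.05, thick bars are list medians and the dashed line is the median of all genes tested. Most growth targets lie to the left of the dashed line with 5 filled points, and the repressed targets have 4 filled points on the left and 1 on the right.

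The genes most like each member that passed were sought among 9305 genes that averaged 5 FPKM or more, by the root mean square difference of centred log2(FPKM + 1) profiles over the 6 libraries. For MYC these were HOMER3 (a difference of 0.025), ACTG1, the gamma actin gene (0.028), and TST (0.030). HOMER3 went from 37.3 to 27.6 FPKM on average, and ACTG1 from 861 to 660 FPKM. For MXD1 they were SLC25A30, a mitochondrial carrier (0.053), MDM2, the ligase of p53 (0.060), and a copy of SMN2 (0.077), whose reads are shared with near-identical rows. For MXD4 they were MOV10, an RNA helicase (0.078), SHFL, an inhibitor of viral frameshifting (0.080), and EIF4EBP2, a repressor of cap-dependent translation (0.083). EIF4EBP2 went from 9.07 to 14.7 FPKM on average.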

How the data were processed

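RNA-seq of 6 KYSE450 libraries was available as 1 deposited table. The authors deposited FPKM per library, per the file headers; the submitters' processing notes list Bowtie2 2.2.5, RSEM 1.2.12 and build hg38 without saying what each did. The authors also deposited a normalized signal per group, a log2 fold change, a p-value and an adjusted p-value per gene; the sources used here do not give the test behind them. Read counts per library were not used here.

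Values were put on the log2(FPKM + 1) scale, the 13409 genes averaging 1 FPKM or more were kept, and a linear model was run in limma 3.58.1, R 4.3.3 (group as the single term, trended moderation, Benjamini-Hochberg over all genes tested, threshold 0.05). The fit was tested on simulated data. The 95% intervals are from limma and cover 1 gene at a time. Fold changes on this scale understate those of low genes.

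The members and lists were chosen with earlier results of these data known, and no list test was run. Genes named beside members are the 3 with the largest change past the threshold in a list, or the 1 with the smallest p where none passed, or any gene of the other-factor and glucose lists; others are marked. Alternatives covered the pseudocount, filter, 3 scalings, variance model, library weights, a block and each library left out. Numbered copies of a member would have been summed, and 0 were found. Exon overlaps are from GENCODE 29 and promoters from RefSeq, both on GRCh38.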

Additional observations from a re-analysis of the deposited data

How the results depend on the processing

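No value with a test changed sign past the threshold under any alternative run. The number of genes called was 905 in the fit as reported, 412 with no filter, 4194 with library weights, 372 with the replicate block, and 290 to 873 with 1 library left out. With no filter more genes are tested, and with a library left out fewer samples are fitted; the cause of the rise with library weights was not tested. The number of members called lower was 2, and it was 0 with no filter, 1 with the replicate block and 0 to 2 with 1 library left out. The number of members called higher was 1, and it was 0 with a filter of 5 FPKM, which removes MXD4, 2 with library weights and 1 to 2 with 1 library left out. Same-numbered libraries of the 2 groups did not deviate together (r across genes -0.01, -0.04 and -0.10), so the numbers were not taken to pair them; with the replicate block the limma adjusted p was 0.0584 for MYC, 0.0465 for MXD1 and 0.0352 for MXD4. Among other named genes, USP36, SKP2, RUVBL1, BRMS1L, CBX1, NOP16, NIP7, PPP1R15A and ZFP36L1 lost their calls with no filter and with the block. Of these, RUVBL1, CBX1, NOP16, NIP7, PPP1R15A and ZFP36L1 also lost them with the variance not trended on level. SKP2, RUVBL1, CBX1, NOP16 and ZFP36L1 lost them under upper-quartile scaling, and CBX1 and ZFP36L1 under median-of-ratios scaling. The difference in the ratio of MYC to the antagonist sum, recomputed with 1 library left out as a check added after seeing the data, was -0.51 to -0.34 in log2. Group sizes of 3 limit these results. In log2 the 95% interval of MGA ran from -0.08 to 0.45 and that of MNT from -0.26 to 0.13. Differences within these ranges are not excluded.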
